A study of Mus musculus with 7 samples.

Results

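The genes of the translation initiation and elongation factors were followed in mini-oocytes, which are made from mouse embryonic stem cells (mESCs) by forced expression of oocyte transcription factors and resemble oocytes. Members were chosen by name alone, as symbols that begin with Eif1 to Eif6 or with Eef1 or Eef2. Of 85 symbols with such a name, 13 marked as pseudogenes by "-ps" and 2 named exclusions, Eif4enif1 and Eif4e1b, were left out, which leaves 70 genes of the 55364 in the table. They include the subunits of the factors, the kinases and methyltransferases that modify them and a few genes that share only the name, among them Eif2c5, a lincRNA.

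Total RNA of 7 samples was sequenced, with 2 of 4F-mini-oocytes at day 7, 3 of 4F-mini-oocytes at day 21 and 2 of 8F-mini-oocytes at day 21. All came from a female mESC line of hybrid 129/C57BL6 strain, BVSC H18, the parent of separate 4F and 8F lines. In these, Nobox, Figla, Tbpl2 and Lhx8 (4F) or these with Stat3, Dynll1, Sub1 and Sohlh1 (8F) are fused to a destabilization domain. The fused factors are stable only with the compound Shield-1. For the 8F line the paper also describes an Npm2-mCherry reporter. Line and number of factors cannot be told apart. All cultures received SCF and Y-27632. Shield-1 was in the medium at day 7 but was no longer added to fresh medium in the last part of the culture, so that day 21 differs from day 7 in this as well as in age. Per the study's methods, 1000 cells were pooled per sample at day 7 and 10 at day 21, so pool size and day cannot be told apart. The methods also name 2 sequencing instruments of different read length. Which libraries each instrument read is not said, so instrument and read length may differ between the groups too. No source says that replicate samples came from separate cultures, and p-values then measure only the spread between these samples.

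The ribosome finds a start codon with the help of initiation factors: eIF2 brings the initiator tRNA, eIF1 and eIF1A hold the small subunit open for scanning on the scaffold of eIF3, and eIF4F, made of the cap-binding protein eIF4E, the helicase eIF4A and the scaffold eIF4G, recruits it to the capped end of the mRNA. Elongation then runs on eEF1A, which delivers aminoacyl-tRNA and is recharged with GTP by the eEF1B subunits, and on eEF2, which moves the ribosome along. In growing oocytes, mRNAs are made and stored, and control of eIF2, eIF4E and eEF2 helps to set how much of this store is translated. The mRNAs of many elongation factors and some initiation factors are known to start with a run of pyrimidines, a terminal oligopyrimidine (TOP) tract, through which mTORC1 and LARP1 set their translation.

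For the elongation genes that fell with time and for Eif1b, which rose most, the bases around the annotated start were searched for runs of such letters. RefSeq windows of build GRCm38.p6 were read on the strand of the gene, from 30 bases before the annotated start through the 25 bases that begin at the start, so that base 31 is the start. Capitals mark the first run of 7 or more pyrimidines that begins with C within 25 bases of the start. The genes Eef1g and Eef1d had no entry.
Eef1a1 (chr9:78481700-78481754, minus strand): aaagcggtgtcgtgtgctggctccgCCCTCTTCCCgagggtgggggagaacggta
Eef2 (chr10:81176601-81176655, plus strand): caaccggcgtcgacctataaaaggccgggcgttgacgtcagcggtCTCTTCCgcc
Eef1b2 (chr1:63176801-63176855, plus strand): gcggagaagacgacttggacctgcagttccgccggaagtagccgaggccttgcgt
Eif1b (chr9:120492576-120492630, plus strand): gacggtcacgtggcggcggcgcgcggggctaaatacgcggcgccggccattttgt
The Eef1a1 run is 10 bases long and crosses the annotated start, and that of Eef2 is 7 bases long and lies after it. Whether either run is the TOP tract of the mRNA was not tested. Neither Eef1b2 nor Eif1b held one in this window. Of the 54 members with an entry, 19 (35.2%) held such a run, and a match describes letters only. The share was 25.6% of all 27025 genes in the reference table and 26.6% of the tested genes among them. Among the members that were lower at day 21 by the test given below, 3 of 9 held it, and among those that were higher, 6 of 22 did. Of the factors expressed here, Figla and Sohlh1 are basic helix-loop-helix proteins and Nobox and Lhx8 homeodomain proteins. The letters that such proteins tend to bind, searched separately on both strands of the 300 bases around the start, were present in 57.4% (CANNTG) and 7.41% (TAATTA or TAATTG) of members, against 20265 (CANNTG) and 3825 (14.2%) of the 27025 genes in the reference table.

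The deposited unit is TPM, in which reads are divided by exon length and every library sums to the same total. Levels of different genes are therefore per length, and this length counts all annotated exons of a gene. Which of these exons the mRNAs held was not tested, and genes with near-identical copies lose reads, so comparisons between genes are approximate. From the smallest steps between TPM values, between 9506086 and 18027375 reads on genes were estimated per library. Zp1, Zp2, Zp3, Gdf9, Ddx4 and Dppa3, which mark oocytes, each reached 10 TPM, and their summed TPM was between 10430 and 11970 at day 7 and between 23360 and 27230 at day 21. None of 5 granulosa and none of 5 fibroblast markers reached 10 TPM in any library, with summed TPM of at most 8.59 per list and with Inha and Lum at 0. Summed TPM of 5 pluripotency markers, of which 4 reached 10 TPM, was 27.7 and 39.6 at day 7 and between 48.4 and 67.3 at day 21. Esrrb went from 3.92 and 12.3 TPM to between 27.6 and 44.3 TPM. Tbx3 was also higher in every day 21 library, and Klf2 was higher in 8F only. Zfp42 went the other way, from 20.6 and 21.9 TPM to between 4.42 and 8.75 TPM. Nanog was at 0.940 TPM in 1 library and at 0 in the others. Summed TPM of 5 trophoblast markers, of which 3 reached 10 TPM, was 52.9 and 110 at day 7 and between 11.3 and 15.8 at day 21. Krt7 and Hand1 were at 11.99 TPM or more at day 7 and at no more than 0.172 TPM at day 21. Tfap2c was at between 10.9 and 14.6 TPM at day 21, and Cdx2 and Elf5 were at 0 at day 7. The part of pluripotent or trophoblast cells in the results below was not tested. In RNA pooled from many cells, fewer cells of a type and less RNA per cell cannot be told apart.

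Of all members, Eef1a1 had the highest level in every library (heatmap of levels). Eef1a1 encodes the eEF1A protein of most cells. It was read at 3233 and 3135 TPM at day 7, at 884, 932 and 827 TPM in 4F-mini-oocytes at day 21, and at 1598 and 1539 TPM in 8F-mini-oocytes. Of the TPM summed over the 70 genes, it gave 33.0% and 32.5% at day 7, between 9.44% and 10.7% in 4F-mini-oocytes at day 21, and 18.03% and 17.5% in 8F-mini-oocytes. The sum itself moved little, from 9802 and 9643 TPM at day 7 to between 8696 and 8865 TPM at day 21. Eef2 was next in level at day 7, with 1183 and 977 TPM. Eif3c, Eef1b2 and Eif4a2 came next at that day, with means of 387, 337 and 326 TPM. At day 21 of 4F the order below Eef1a1 was Eif3g, Eif1b, Eef2 and Eif3c, with means of 664, 638, 610 and 576 TPM, which lay closer to each other than their replicates spread. Members at 10 TPM or more numbered between 56 and 60 per library. Eif2s3y, the Y-linked copy of eIF2 gamma, was at 0 in all libraries of this female line. It was left out of the tests with Eef1a2, the eEF1A of neurons and muscle, Eef1akmt3 and Eif2c5, each read in a single library at 0.307, 0.130 and 4.38 TPM, because a gene was tested where 2 or more of the 7 libraries reached 1 TPM, which kept 66 members.

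**Figure D1:**
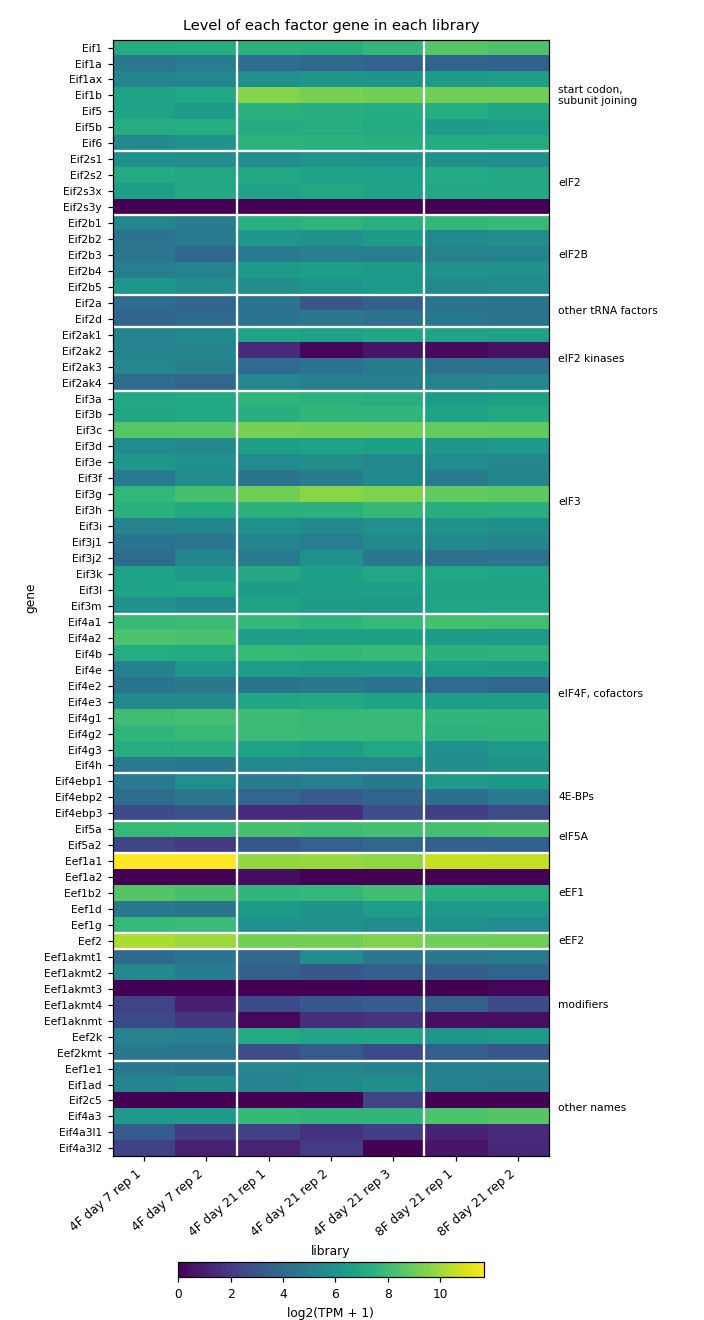
Level of each of the 70 genes (rows, grouped by role) in each of the 7 libraries (columns) as log2(TPM + 1), with brighter colour for higher levels. Eef1a1 is brightest at day 7, Eif1b and Eif3g brighten at day 21, and Eif2ak2 goes from mid-scale to near 0.

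The first comparison asked how the factors differ between the early and the late 4F-mini-oocyte. In a limma fit of log2(TPM + 1) with p-values adjusted over all 21780 tested genes by the Benjamini-Hochberg method, 38 of the 66 members passed an FDR of 0.05 between day 7 and day 21. In the same fit 40.6% of all tested genes passed. With a filter of 5 TPM in 2 libraries, which leaves out more low genes, 51.8% of all tested genes and 41 of 63 members passed. Of the 66 members 27 were higher at day 21 and 11 lower, where 25.3% of all 21780 tested genes were higher and 15.3% lower. The median member was higher by 0.36 on the log2 scale and the median tested gene by 0.17. This split rests on the scaling: with median-of-ratios rescaling 15 members were higher and 18 lower, and with quantile normalization 15 and 20, while the share of higher calls among all genes moved from 62.3% to 48.6% and 54.2%. Of the called members, 13 that rose and 7 that fell did so in all 10 alternative settings and with each of the 7 libraries left out, and the other 14 and 4 lost the call in at least 1 of these. Unless stated otherwise, the members described as risen or fallen below are among those 20.

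Summed by role, the eEF1 genes gave 3850 and 3710 TPM at day 7, between 1229 and 1271 TPM at day 21 of 4F and 1901 and 1826 TPM in 8F-mini-oocytes, most of it Eef1a1. The eIF3 genes gave 1499 and 1578 TPM at day 7, between 2303 and 2482 TPM at day 21 of 4F and 1872 and 1869 TPM in 8F, and those of eIF2B 182 and 159, between 386 and 441, and 396 and 421 TPM. In these 3 groups no day 21 library overlapped with day 7. The eIF2 subunits gave between 272 and 326 TPM in all 7 libraries, without the copies of Eif2s2 described below. The other sums leave out copies too.

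**Figure D2:**
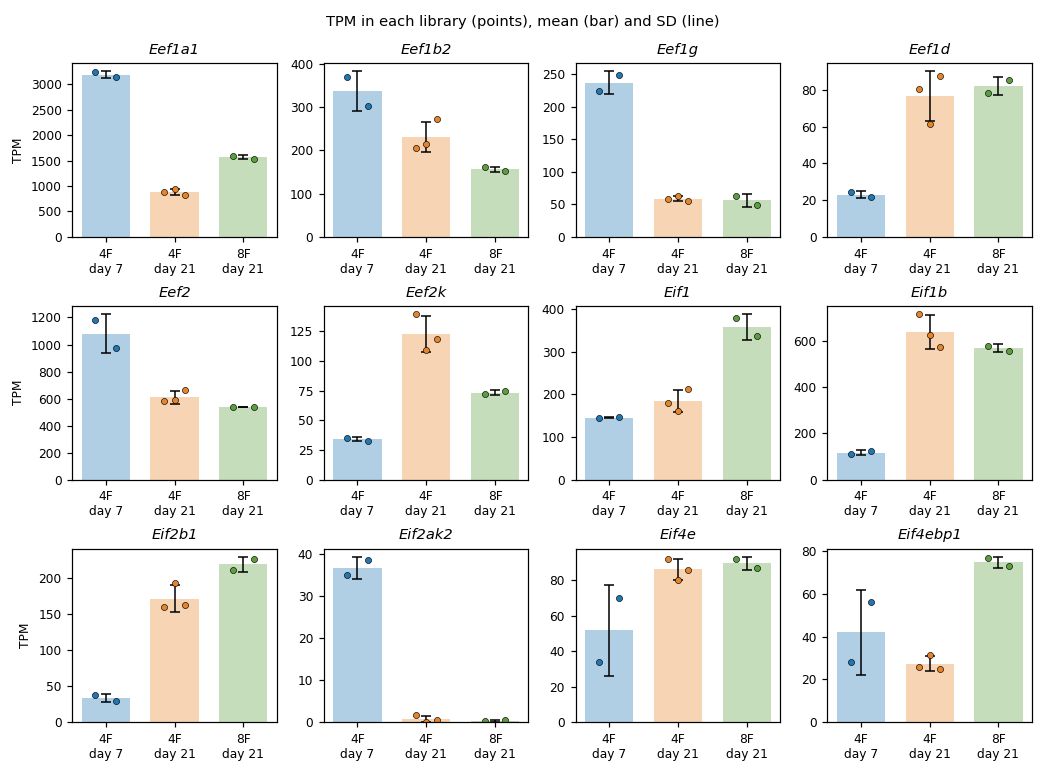
TPM of 12 genes in every library (points) with the mean of the group (bar) and SD (line) for 4F day 7 (n = 2), 4F day 21 (n = 3) and 8F day 21 (n = 2), each on its own linear axis. Eef1a1, Eef1g and Eef2 are high at day 7, Eef1d, Eef2k, Eif1b and Eif2b1 are high at day 21, and Eif4ebp1 and Eif1 are highest in 8F.

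Of the elongation factors, 3 of the 4 tested eEF1 genes and Eef2 were lower at day 21. The mean of Eef1a1 was 881 ± 52.2 TPM (SD, n = 3) there and 3184 ± 68.7 TPM (SD, n = 2) at day 7, and it fell by 1.85 ± 0.11 (SE) on the log2 scale, with an adjusted p of 8.8e-05 (limma, Benjamini-Hochberg). Both day 7 libraries lay far above all 3 at day 21. Reads that map to more than 1 place were not counted, and the 10 near-identical copies of Eef1a1 had a summed TPM of 86.5 and 61.8 at day 7 and between 183 and 249 at day 21.

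Eef1g, the eEF1B gamma subunit, was read at 224 and 249 TPM at day 7 and at 58.3, 63.3 and 54.6 TPM at day 21, with no overlap and a difference of -1.99 ± 0.14 (SE; adjusted p = 0.000168, limma, Benjamini-Hochberg). Eef1b2, which encodes the subunit that exchanges GDP for GTP on eEF1A, was read at 370 and 304 TPM at day 7 and at 206, 215 and 272 TPM at day 21. Its difference of -0.55 was past the threshold (adjusted p = 0.0294, limma, Benjamini-Hochberg) but was lost with either of day 21 libraries 1 and 2, day 7 library 1 or either 8F library left out. Against these, Eef1d, the delta subunit with the same exchange activity, rose from 24.4 and 21.5 TPM to 80.7, 61.2 and 87.5 TPM, by 1.68 ± 0.18 (SE; adjusted p = 0.000639, limma, Benjamini-Hochberg). Per length, Eef1b2 exceeded Eef1d in every library, from 15.2-fold and 14.1-fold at day 7 to between 2.55-fold and 3.52-fold at day 21 in 4F-mini-oocytes. The size of these ratios rests on exon lengths of 2532 bases for Eef1b2 and 6488 bases for Eef1d.

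Eef2 was read at 1183 and 977 TPM at day 7 and at 578, 586 and 667 TPM at day 21, and fell by 0.82 ± 0.12 (SE) on the log2 scale (adjusted p = 0.00266, limma, Benjamini-Hochberg). Its inhibitory kinase moved the other way. Eef2k, whose product phosphorylates eEF2 and slows elongation, was read at 35.1 and 32.8 TPM at day 7 and at 140, 110 and 119 TPM at day 21, a rise of 1.81 ± 0.13 (SE; adjusted p = 0.000174, limma, Benjamini-Hochberg). The groups did not overlap for either gene. Eef2kmt and Eef1akmt2, lysine methyltransferases of eEF2 and eEF1A, fell by 1.74 and 1.75 on the log2 scale, from means of 23.8 and 36.2 TPM to 6.58 and 9.90 TPM, and 23.0% of the exon bases of Eef2kmt are shared with other genes. Of the 6 tested modifier genes 1 rose and 2 fell, and Eef1akmt1, Eef1akmt4 and Eef1aknmt did not pass.

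Among the genes that act at the start codon and at subunit joining, 4 of 7 were higher and 1 lower. Eif1b, a paralogue of the start-codon fidelity factor Eif1, rose most of all members. It was read at 109 and 124 TPM at day 7 and at 716, 625 and 574 TPM at day 21, a difference of 2.44 ± 0.12 (SE; adjusted p = 6.57e-05, limma, Benjamini-Hochberg). All 3 day 21 libraries exceeded both day 7 libraries, and 8F-mini-oocytes had 580 and 556 TPM. Eif1 itself was read at 144 and 146 TPM at day 7 and at 179, 161 and 212 TPM at day 21, with a difference of 0.33 that did not pass (adjusted p = 0.0994, limma, Benjamini-Hochberg). With its 15 near-identical copies added, it was at 218.0 and 220.2 TPM at day 7 and between 405.8 and 429.3 TPM at day 21. Each TPM in such a sum is divided by the length of its own gene. This sum and those given below for other genes are therefore not corrected levels of the gene. Eif6, which keeps the large subunit apart from the small one, rose from 45.9 and 59.7 TPM to 187, 173 and 161 TPM (difference 1.71 ± 0.14, SE). Eif5 and Eif1ax, the GTPase activator of eIF2 and the X-linked eIF1A, were higher by 0.80 and 0.66 but lost the call with median-of-ratios rescaling and with quantile normalization. Eif1a, the autosomal eIF1A, was lower by 0.82 and lost the call in 3 settings and with all but 1 of the libraries left out in turn. Eif5b, the GTPase that joins the subunits, was read at 149 and 147 TPM against 142, 150 and 138 TPM, and its groups overlapped.

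The eIF2 complex itself did not change past the threshold in any of its 3 tested subunits. Means at day 7 and day 21 were 54.7 and 59.2 TPM for Eif2s1, 131 and 110 TPM for Eif2s2, and 113 and 112 TPM for Eif2s3x, the alpha, beta and gamma subunits, and all 3 have near-identical copies. Gm9892, the copy of Eif2s2, had a higher TPM than Eif2s2 in 4F at day 21. It had 89.1 and 79.4 TPM at day 7, 327.7, 361.9 and 308.3 TPM at day 21 and 110.4 and 97.75 TPM in 8F. As Eif2s2 counts 6755 exon bases and TPM is per length, a higher TPM of the copy need not be more reads. Eif2s2 with its copy was at 229 and 200.5 TPM at day 7, between 410.5 and 465.7 TPM at day 21 and at 249 and 229 TPM in 8F. A gap is not shown to be absent by this, and with quantile normalization Eif2s3x was lower by 0.62 and past the threshold.

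The genes of eIF2B, which reloads eIF2 with GTP, were higher in 4 of 5 subunits. Eif2b1, the regulatory alpha subunit, was read at 38.0 and 30.2 TPM at day 7 and at 159, 192 and 162 TPM at day 21, and rose by 2.30 ± 0.14 (SE; adjusted p = 0.000104, limma, Benjamini-Hochberg). Eif2b2 and Eif2b4, the beta and delta subunits, rose by 1.48 and 1.31, each without overlap of the groups. Eif2b3, the gamma subunit, was higher by 0.73 but lost the call in 7 of 10 settings and without any library other than day 7 library 1. Eif2b5, the catalytic epsilon subunit, was read at 69.1 and 52.0 TPM at day 7 and at 52.9, 67.9 and 78.9 TPM at day 21, and its groups overlapped. At day 7 Eif2b5 was the most abundant of the 5 per length, at 60.6 TPM against 34.1 TPM for Eif2b1, and at day 21 Eif2b1 was, at 171 TPM against 66.6 TPM.

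The 4 kinases that phosphorylate eIF2 alpha split evenly. Eif2ak2 encodes PKR, the kinase that senses double-stranded RNA. It was read at 34.9 and 38.6 TPM at day 7 and at 1.67, 0.135 and 0.653 TPM at day 21, a difference of -4.46 ± 0.47 (SE; adjusted p = 0.000627, limma, Benjamini-Hochberg) on a scale that understates changes to such low values. The estimated reads behind these values were 701 and 1031 at day 7 and 40, 3 and 14 at day 21. In 8F-mini-oocytes it had 0.235 and 0.485 TPM, so that all 5 day 21 libraries lay far below both at day 7. Eif2ak3, the kinase PERK of the endoplasmic reticulum, was lower at day 21 by 0.83, from 40.8 and 33.3 TPM to 15.9, 20.5 and 25.7 TPM, but lost the call without any library other than day 21 library 3. The other two rose: Eif2ak1, the heme-regulated kinase HRI, from 36.8 and 46.5 TPM to 111, 102 and 125 TPM, and Eif2ak4, the amino acid sensor GCN2, from 16.1 and 13.6 TPM to 41.3, 31.8 and 30.6 TPM. Their differences were 1.42 ± 0.15 and 1.16 ± 0.19 (SE). At day 7 the highest of the 4 was Eif2ak1 or Eif2ak3, at day 21 Eif2ak1 in every library.

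Of the 14 genes of eIF3, the scaffold of the initiation complex, 8 were higher at day 21 and none lower. The call held in all settings for Eif3g, which rose by 1.39 ± 0.20 (SE) from 207 and 305 TPM to 554, 762 and 677 TPM, and for Eif3d, which rose by 1.07 ± 0.12 (SE) from 50.7 and 43.8 TPM to 98.9, 104 and 96.6 TPM. Eif3d encodes the subunit that can itself bind the cap, and 43.3% of its exon bases are shared with other genes. For Eif3a, Eif3b, Eif3c, Eif3i, Eif3j1 and Eif3m the call was lost with both rescalings, and the sign turned for Eif3a (-0.24) and Eif3b (-0.01) with quantile normalization. The other members of the complex ranged from -0.33 for Eif3e to 0.40 for Eif3j2, without passing. With its near-identical copies added, Eif3e was at 75.4 and 75.75 TPM at day 7 and at 103.9, 125.7 and 74.1 TPM at day 21, which overlap. The copy of Eif3m was at 3.17 and 4.26 TPM at day 7 and between 33.9 and 63.1 TPM at day 21. TPM within the complex was uneven at day 21 of 4F. Eif3c and Eif3g had at least 543 TPM in every library, and Eif3e, Eif3f, Eif3i, Eif3j1 and Eif3j2 had at most 58.5 TPM. The lengths behind these values count all annotated exons, with 1984 bases for Eif3g, 5830 for Eif3j1 and 6719 for Eif3e. Which of these exons the mRNAs held was not tested, so the size of these gaps is uncertain.

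**Figure D3:**
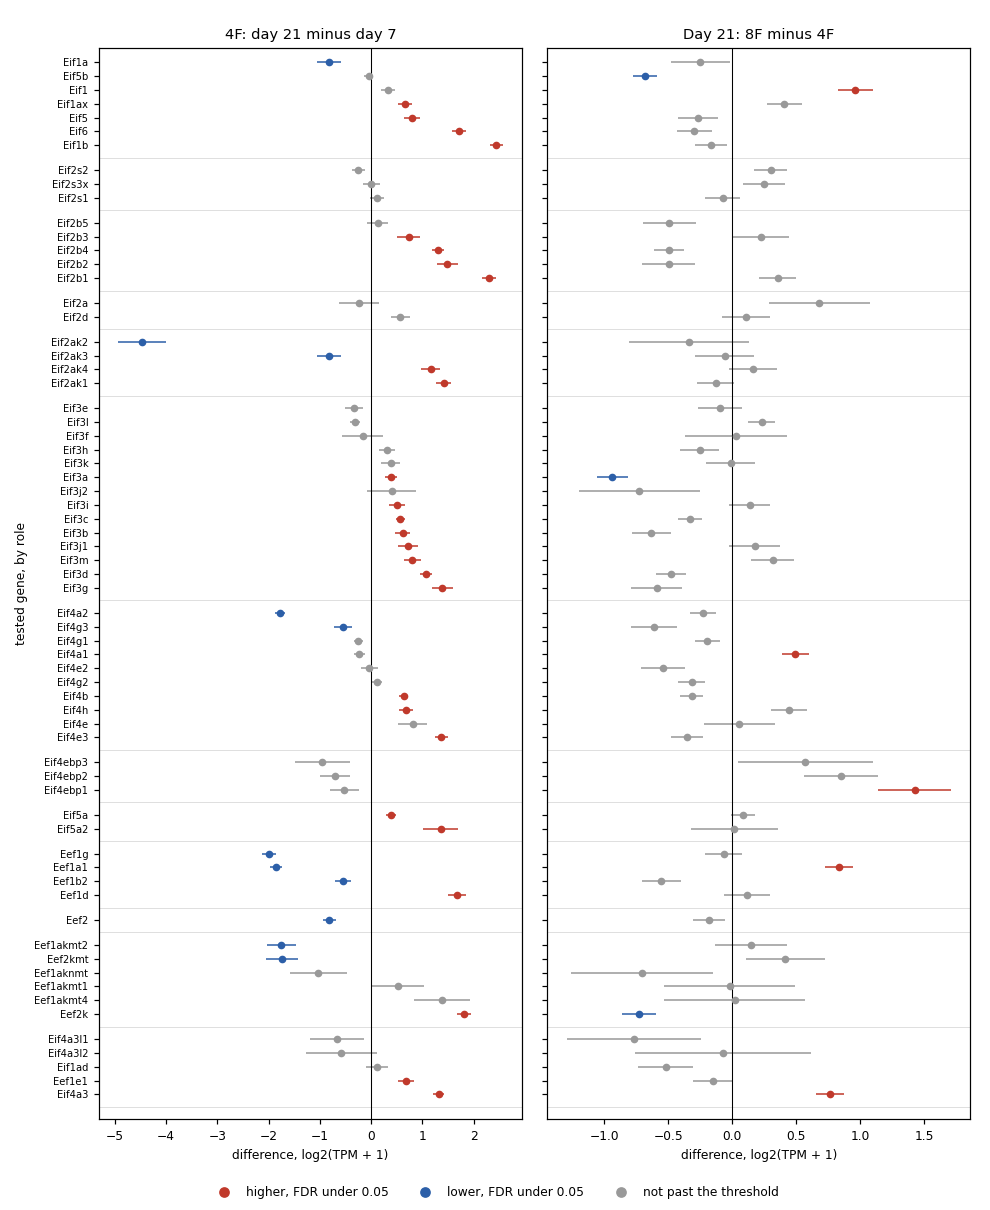
Difference on the log2(TPM + 1) scale with its SE (line) for each of the 66 tested genes, grouped by role, for day 21 minus day 7 in 4F-mini-oocytes (left) and 8F minus 4F at day 21 (right), the 2 panels having axes of different range. Red and blue mark genes past an FDR of 0.05, 27 and 11 on the left and 5 and 3 on the right.

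In eIF4F, 3 of 10 genes were higher and 2 lower. Eif4e, the cap-binding protein, was read at 33.8 and 69.6 TPM at day 7 and at 92.1, 80.2 and 85.7 TPM at day 21. The day 7 libraries differed widely from each other, and the difference of 0.81 ± 0.28 (SE) did not pass (adjusted p = 0.0584, limma, Benjamini-Hochberg), whereas without day 7 library 2 it was 1.32 and passed. The near-identical copy Gm7327 was read at 6.25 and 4.99 TPM at day 7 and at 90.35, 91.6 and 88.3 TPM at day 21, as high as Eif4e itself, so the level of Eif4e is uncertain. Its relative Eif4e3 rose from 46.8 and 43.5 TPM to 118, 131 and 107 TPM, by 1.37 ± 0.12 (SE), and Eif4e2, the cap-binding repressor, lay between 20.8 and 24.6 TPM. Eif4a2 fell from 332 and 320 TPM to 88.6, 98.6 and 97.2 TPM, by 1.77 ± 0.10 (SE) on the log2 scale (adjusted p = 8.65e-05, limma, Benjamini-Hochberg), while Eif4a1, the other helicase gene, was read at 241 and 247 TPM against 214, 188 and 223 TPM and did not pass (adjusted p = 0.136, limma, Benjamini-Hochberg). Eif4a1 has a near-identical copy, Eif4a-ps4, that itself was read at between 105 and 224 TPM, so its own level is uncertain. The scaffold genes Eif4g1 and Eif4g2 differed by -0.25 and 0.12 without passing. With median-of-ratios rescaling and with quantile normalization, Eif4a1 (-0.57 and -0.81) and Eif4g1 (-0.59 and -0.81) passed as lower. Eif4g3 was lower by 0.55 with an adjusted p of 0.0493 (limma, Benjamini-Hochberg), which was lost with day 7 library 1 or 2, or day 21 library 1 or 2, left out. The cofactors Eif4b and Eif4h were higher by 0.63 and 0.69, calls that both lost with quantile normalization and Eif4h also with median-of-ratios rescaling. None of the 4E-BP genes, whose products bind eIF4E and block it, passed: Eif4ebp1 had means of 42.0 and 27.3 TPM, Eif4ebp2 of 20.2 and 11.9 TPM and Eif4ebp3, with 67.3% of its exon bases shared with other genes, of 6.12 and 3.05 TPM. Without day 7 library 1 Eif4ebp1 passed as lower (-1.01) and without day 21 library 3 so did Eif4ebp3 (-1.39).

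Eif5a, which relieves stalled ribosomes and carries the amino acid hypusine, was higher by 0.39. The Eif5a call was lost with both rescalings, and the difference turned to -0.19 with quantile normalization. Its near-identical copy was at 5.70 and 0 TPM at day 7 and between 35.7 and 55.6 TPM at day 21 of 4F. Eif5a2 was higher by 1.35 at a low level of 3.68 ± 1.11 against 11.05 ± 2.92 TPM (SD, n = 2 and 3) and lost the call with the replicate block, with no other group in the fit and without day 7 library 2. Among genes caught by name only, Eif4a3, a helicase of the exon junction complex rather than of initiation, rose from 78.5 and 86.7 TPM to 220, 198 and 205 TPM, by 1.32 ± 0.11 (SE). Its low copies Eif4a3l1 and Eif4a3l2 did not pass, nor did Eif1ad. Eif2a and Eif2d, which were grouped apart as other initiator tRNA factors, did not pass either. Eif2d was higher by 0.57 with an adjusted p of 0.0507 (limma, Benjamini-Hochberg). Eef1e1, a scaffold of the tRNA synthetase complex, was higher by 0.68 and lost the call with both rescalings and without day 7 library 2.

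Paralogues encode forms of the same factor, and the share of each in the summed TPM of its set was also followed in each library (plot of paralogue shares). Eif1b made up 43.0% and 45.9% of Eif1 and Eif1b at day 7 and 80.0%, 79.5% and 73.0% at day 21, or 33.3% and 36.0% and between 57.2% and 63.8% with the copies of Eif1 counted. Eif4a1 made up 42.1% and 43.6% of Eif4a1 and Eif4a2 at day 7 and 70.7%, 65.6% and 69.6% at day 21. Eif1ax made up 61.0% and 59.4% of the eIF1A pair at day 7 and 76.4%, 82.7% and 84.5% at day 21. In each of the 3 pairs the groups did not overlap, and a share within a library does not depend on how the library is scaled by a constant, though it moves with reads lost to near-identical copies. In the cap-binding set, Eif4e2 made up 21.1% and 17.8% at day 7 and between 9.66% and 10.3% at day 21, while the shares of Eif4e overlapped, with 33.0% and 50.6% at day 7. The shares of Eif4g1 against Eif4g3 went from 64.6% and 64.4% to 70.6%, 71.4% and 65.7%. Within the 4E-BP set Eif4ebp1 gave 56.5% and 64.4% at day 7 and between 57.6% and 73.8% at day 21, so these groups overlapped. Eef1a1 and Eif2s3x made up 100% of their pairs to within rounding and Eif5a at least 95.6%. The shares of Eif3j1 and Eif3j2, near-identical to each other, ranged widely among replicates, from 34.4% to 64.8% for Eif3j1 at day 21.

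**Figure D4:**
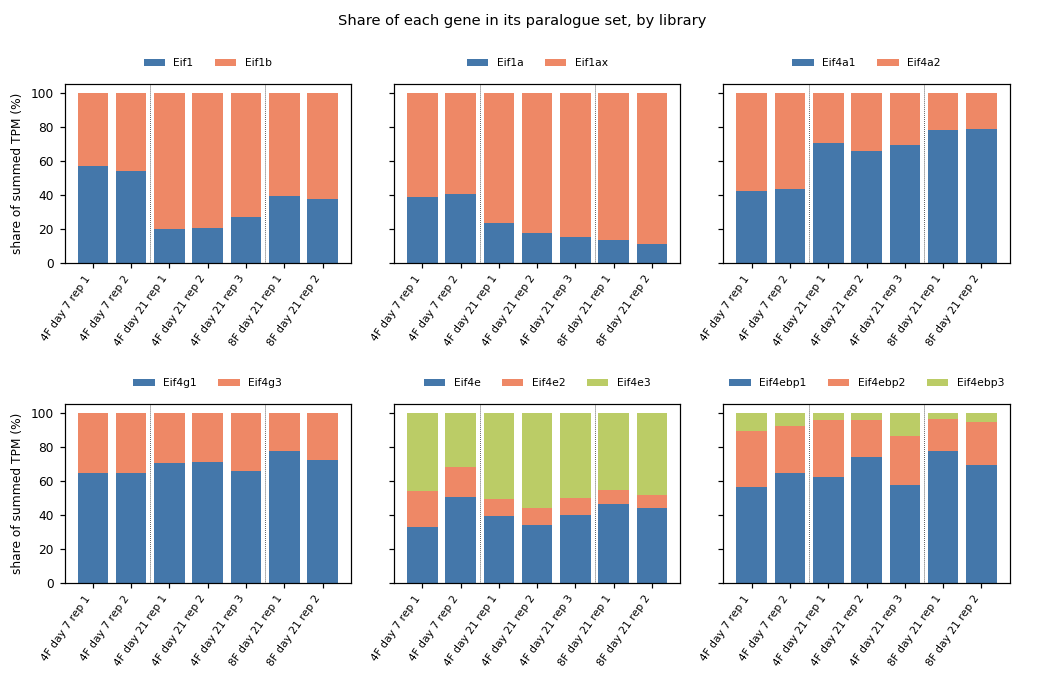
Stacked share of summed TPM in percent for each gene of 6 paralogue sets in each of the 7 libraries, with dotted lines between groups. From day 7 to day 21 in 4F-mini-oocytes the share of Eif1b goes from 43.0% and 45.9% to between 73.0% and 80.0%, and Eif4a1 becomes the larger part of its pair.

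The rest of the translation pathway was read from 5 lists of genes that are no members, of which 48 genes were tested and 21 (43.8%) passed between day 7 and day 21, near the 40.6% of all tested genes. Of 8 genes of poly(A)-binding proteins (Pabpc1, Pabpc1l and Pabpc4 in the cytoplasm, Pabpn1 and Pabpn1l of the nuclear type) and of proteins that bind these (Paip1, which stimulates translation, and Paip2 and Paip2b, which inhibit it), 7 were higher and none lower, though the calls of Pabpc4 and Pabpn1 were lost in 6 and 7 of 10 settings and Pabpc4 turned to -0.16 with quantile normalization. Pabpc1l, the embryonic poly(A)-binding protein of oocytes, was at 1.86 ± 2.24 TPM at day 7 and at 201 ± 8.69 TPM at day 21 (SD, n = 2 and 3), and Pabpn1l at 30.2 ± 4.503 and 556 ± 43.3 TPM, differences of 6.41 and 4.16. Of 12 tested genes of mTORC1 and the integrated stress response, the program that follows phosphorylation of eIF2, 5 were higher and 1 lower. Chac1 and Asns, targets of Atf4, were higher by 2.59 and 1.78, from means of 1.27 and 11.5 TPM to 14.5 and 43.3 TPM, and the Chac1 call was lost in 2 of 10 settings and without day 7 library 1. Atf4 itself was higher by 1.56, from a mean of 139.7 to 416.5 TPM, and Ppp1r15a by 1.41, from 47.7 to 128.9 TPM. Both kept the call in all 10 settings. Mknk1, also among those higher, kept the call in 3 of 10 settings. Trib3 of the same list differed by -0.31 without passing, and Ddit3 was not tested. Larp1, which binds TOP mRNAs, was the gene that fell, by 0.69. Of 10 mitochondrial translation factors 3 were higher, with Mtif3 at 18.3 ± 3.70 and 97.1 ± 5.62 TPM (SD, n = 2 and 3), a difference of 2.36, and Mrrf, higher by 0.90, called in 7 of 10 settings and lost without day 7 library 2 or either 8F library. Of 9 diphthamide and hypusine enzymes, which make the modified residues of eEF2 and eIF5A, 2 were higher and 1 lower, led by Dph3 (1.48) and Dhps (-1.04), the enzyme that starts hypusine. Termination and recycling had 1 of 9 higher, Gspt2 (1.63), which encodes eRF3b, and 1 lower, Mcts1 (-1.75), a recycling factor.

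The second comparison asked how the factors differ between 8F-mini-oocytes and 4F-mini-oocytes at day 21, with the day 21 4F libraries in common with the first. As these come from separate lines, a difference cannot be assigned to the further factors of 8F. By the same test 8 of 66 members passed, 5 higher and 3 lower in 8F, where 8.37% of all tested genes passed, 3.95% higher and 4.41% lower. The median member differed by -0.07 and the median tested gene by 0.06. None of the 8 calls was left without either of the 8F libraries, with eBayes without the trend or with the replicate number as a block, in which 12 to 19 members had an unadjusted p under 0.05, against 24 in the fit reported. The study's methods name 2 sequencing instruments of different read length without the libraries of each. In neither comparison could a value within an instrument be given. The part of read length in the values of near-identical copies was not tested.

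Eif1 was read at 379 and 336 TPM in 8F-mini-oocytes and at 179, 161 and 212 TPM in 4F-mini-oocytes, a difference of 0.96 ± 0.14 (SE; adjusted p = 0.0129, limma, Benjamini-Hochberg). Its 15 near-identical copies went the other way, with a summed TPM of 79.5 and 64.1 in 8F and of 227, 255 and 217 in 4F. Eif1 and its copies together were at 458.5 and 399.8 TPM in 8F and at 405.8, 416.4 and 429.3 TPM in 4F, and these groups overlapped. Eif1b, which has no such copy, differed by -0.16 ± 0.12 (SE) without passing. Its share of the pair was 60.5% and 62.4% in 8F-mini-oocytes, under that of each 4F library at day 21, but with the copies of Eif1 counted it was 55.8% and 58.2% in 8F and between 57.2% and 63.8% in 4F, which overlap. Eef1a1 was higher in 8F by 0.83 ± 0.11 (SE; adjusted p = 0.0102, limma, Benjamini-Hochberg), at a level between those of the 4F groups, and the summed TPM of its near-identical copies was 40.9 and 33.5 in 8F. Eef1g and Eef2, the other elongation genes that fell with time, differed by -0.07 and -0.18 between 8F and 4F without passing, and Eef2 was at 540 and 536 TPM in 8F. Eef1b2 was at 161 and 151 TPM in 8F, below all 3 4F libraries, with a difference of -0.55 that did not pass (adjusted p = 0.0835, limma, Benjamini-Hochberg).

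Eif4ebp1 had the largest difference of the members past the threshold, at 76.5 and 72.8 TPM in 8F against 26.0, 31.2 and 24.8 TPM in 4F (1.42 ± 0.28, SE; adjusted p = 0.0324, limma, Benjamini-Hochberg). The groups were far apart at day 21, and of the day 7 4F libraries, at 28.0 and 56.0 TPM, the first lay within the day 21 4F range and the other between both groups. Its call was also lost with each of the day 21 4F libraries left out, without a filter on low values and with quantile normalization. Eif4a1 was at 304 and 282 TPM in 8F and higher by 0.49, a call that was likewise lost with each day 21 library left out, and Eif4a3 was at 330 and 376 TPM and higher by 0.76 ± 0.11 (SE; adjusted p = 0.0128, limma, Benjamini-Hochberg). The share of Eif4a1 in its pair, 78.3% and 78.6%, was above that of all 4F libraries.

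Lower in 8F were Eif3a, Eif5b and Eef2k. Eif3a, the largest subunit of eIF3, was at 84.8 and 97.7 TPM in 8F and at 192, 174 and 160 TPM in 4F (-0.93 ± 0.12, SE; adjusted p = 0.00986, limma, Benjamini-Hochberg), and the day 7 libraries, at 130 and 137 TPM, lay between. Eif5b was at 86.3 and 91.6 TPM in 8F against 138 TPM or more in all 5 4F libraries, a difference of -0.68 ± 0.09 (SE). Eef2k was at 71.8 and 74.8 TPM in 8F, between its day 7 and day 21 levels in 4F (-0.73 ± 0.13, SE; adjusted p = 0.0250, limma, Benjamini-Hochberg), and lost the call also without day 21 4F library 1 or 3. Eif4e was at 92.0 and 86.8 TPM in 8F, a difference of 0.06 ± 0.28 (SE) from 4F on the log2 scale that did not pass. With the copy Gm7327 added it was at 98.2 and 92.05 TPM in 8F and between 172 and 182 TPM in 4F, without overlap. Closest to the threshold without passing were Eif3b, lower by 0.63 (adjusted p = 0.0536, limma, Benjamini-Hochberg), and Eif2b4, lower by 0.50 (adjusted p = 0.0538, limma, Benjamini-Hochberg). Eif2b1 was at 211 and 226 TPM, above all 3 day 21 4F libraries, with a difference of 0.35 that did not pass.

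In the pathway lists, 8 of 48 tested genes (16.7%) passed between 8F and 4F, where 8.37% of all tested genes did. Atf4, the transcription factor of the integrated stress response, was at 701 ± 96.4 TPM in 8F and 417 ± 60.2 TPM in 4F (SD, n = 2 and 3), a difference of 0.75, called in 6 of 10 settings and lost without day 21 4F library 2 or 3. Pabpn1 and Paip2 were lower in 8F by 0.92 and 0.91, as 2 of 4 poly(A)-binding genes that were lower. Denr, which acts in recycling, was lower by 1.17, and of the mitochondrial factors Tufm was higher by 0.82 and Mtif3 lower by 0.75. All 8 calls were lost with the replicate block and without either 8F library, and those of Pabpn1, Paip2, Pabpn1l, Tufm and Mtif3 also with each day 21 4F library left out.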

How the data were processed

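Total RNA of pooled mini-oocytes was sequenced in 7 samples. The authors made libraries with a stranded SMART-seq kit, trimmed with Trim Galore, aligned to mm10 with Hisat2, discarded ribosomal reads (Bedtools) and those with more than 1 alignment, counted the rest with featureCounts on GENCODE vM25 with fractional sharing and no strand option stated, and deposited TPM. Versions were not given in the sources used here. The study's own test models raw counts, and only TPM were used here, so limma (version 3.58.1, R 4.3.3; trended empirical Bayes) was fitted to log2(TPM + 1) of all 3 groups, for genes at 1 TPM or more in at least 2 libraries, with Benjamini-Hochberg adjustment over all tested genes and an FDR of 0.05. On this scale changes of low genes are understated. Depth was estimated from the steps of low TPM values and exon lengths of GENCODE vM21, and 3 reads on 1 kb of exon then correspond to between 0.515 and 0.764 TPM, for counting error only. Near-identical copies (95% identity over 200 bases or more, blastn) were found for 22 members, and 29 members share exon bases with other genes.

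Members and lists were chosen with earlier results of these data known. Named by rule were, in each comparison, up to 12 members per direction past the threshold whose groups did not overlap and whose higher mean was at least 10 TPM, by size of change, with Eef1a1, Eif4e, the paralogue sets and the 2 most changed such genes of each pathway list. Other genes named were chosen after their values were seen. The symbol Ddit3 was carried by 2 gene IDs and was left out. The script was run on simulated data for the first comparison only, with the same fixed spread for all genes. No result here rests on that run, and the second comparison was not tested in this way. Replicate numbers did not pair samples: correlations of deviations from group means lay between -0.0369 and 0.0369. Alternatives were 2 pseudocounts, 2 filters, 2 rescalings, no trend, array weights, 2 groups only, a replicate block and each library left out.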

Additional observations from a re-analysis of the deposited data

How the results depend on the processing

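Between day 7 and day 21 of 4F, 38 members passed (27 higher, 11 lower), and between 28 and 41 did in the 10 other settings. Higher members numbered 15 with median-of-ratios rescaling and 15 with quantile normalization, and lower ones 18 and 20. Lower ones numbered 7 with array weights and 7 with only the 2 groups compared. With 1 library left out, between 29 and 37 members passed, between 21 and 25 higher and between 7 and 12 lower, and between 16 and 20 of the other translation genes, against 21 with all libraries. The median member exceeded the median of all genes by 0.189 on the log2 scale, by 0.0278 with a filter of 5 TPM and by -0.354 with quantile normalization, and with 1 library left out by between -0.0398 (without day 7 library 1) and 0.172, so no direction can be given to this difference. With quantile normalization Eif2s3x turned to -0.623 and Eif5a to -0.1934. The causes were not tested.

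Between 8F and 4F, 8 members passed (5 higher, 3 lower) and 8 other translation genes. With eBayes without the trend 0 members passed (0 higher, 0 lower) and 1 other gene, and with array weights 17 members (12 lower) and 19 other genes. Without a filter 3 members were higher, with a filter of 5 TPM 5 were lower, and with only the 2 groups compared 6 were lower. With 1 library left out, between 0 and 10 members passed, between 0 and 5 higher and between 0 and 5 lower, and between 0 and 10 other genes, with 0 members without either 8F library. The median difference of -0.128 was -0.2 with a pseudocount of 0.1 and lay between -0.202 and -0.0778 with 1 library left out. Where this left a group with 1 sample, that sample was assumed to vary like the other groups.

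With the replicate number as a block, which the check of pairing did not bear out, 30 members passed between day 7 and day 21 (21 higher, 9 lower), and 0 members (0 higher, 0 lower) and 0 other genes between 8F and 4F, where 19 members had an unadjusted p under 0.05. Over the named members, 545 of 612 alternative values stayed on the same side of the threshold between day 7 and day 21. Another 56 lost the threshold, 9 passed it, and 2 changed direction where the main or the alternative fit was past it. Between 8F and 4F, 363 of 408 stayed on the same side, 44 lost the threshold and 1 passed it. Values counted as staying include changes of sign where neither fit passed. Depth limits Eif2ak2 and Eif4ebp3, which had an estimated 3 and 5.67 reads in their lowest library.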
